A study of Mus musculus with 8 samples.

Results

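The genes described here are 8 genes of the arterial extracellular matrix, chosen by symbol from the 49585 genes of the deposited table. They are the thrombospondins Thbs1 and Thbs2, Sparc and its relative Sparcl1, periostin (Postn), the tenascins Tnc and Tnxb, and matrix Gla protein (Mgp). RNA was sequenced from the brachiocephalic artery, a branch of the aortic arch. The mice lacked ApoE and began a high-fat diet when 12 weeks old. Of the 8 libraries, 4 came from mice given non-immune IgG and 4 from mice given a blocking antibody against Dll1, a ligand of Notch receptors (clone HMD1-5). Both agents were injected into the peritoneum at 250 µg, 2 times per week, so diet, genotype and injections were shared by the groups. Whether each sample is its own animal is not stated in the labels, and p-values therefore reflect variation among samples that may be technical.

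Matricellular proteins are secreted into the matrix but act mainly as signals to cells rather than as structural fibres. Most are low in a resting adult artery and are made by smooth muscle cells, fibroblasts and macrophages during injury and plaque growth. Thrombospondin 1 can activate latent TGF-beta and binds the receptors CD36 and CD47. Matrix Gla protein depends on vitamin K for its carboxylation, binds bone morphogenetic proteins and keeps the arterial media free of mineral; mice that lack it calcify their arteries.

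Each treatment was split over column sets named 045 and 076, numbers that the labels do not explain. Set 045 held the IgG libraries C1IA and C2IA and the antibody libraries D1IA and D2IA. Set 076 held G1IA and G2IA with IgG and, with the antibody, libraries also named D1IA and D2IA. Below, values run in that order. The labels do not say whether a shared name means a shared animal. The libraries named D2IA differed in Xist, with 2261 reads in set 045 and 3 in set 076, whereas Xist did not separate those named D1IA. The sets differed in make-up: nuclear protein-coding genes held 0.848% to 3.10% of a library's TPM in set 045, and 21.2% to 24.2% in set 076. Reads on them numbered 663099 to 2729071 reads per library in set 045 and 7422343 to 8070921 in set 076. Levels are therefore given as deposited TPM rescaled so that the protein-coding genes of each library sum to 1000000, called the protein-coding scale, which is adjusted for gene length. Apoe itself lay between 11.4 and 48.9 on this scale in all 8 libraries; the table does not show which exons these reads cover, so this does not check the genotype. Xist had 1948 reads in C1IA and 2261 in D2IA of set 045 and 3 to 9 in the other 6 libraries, and Ddx3y, a Y-linked gene, had 0 reads in those 2 and 63 to 1751 elsewhere. Smooth muscle markers, the defining cells of the tissue, were detected in all 8 libraries (6 of 6 genes), with a summed level of 548 to 950 in set 045 and 3543 to 4558 in set 076.

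RefSeq promoter windows (build GRCm38.p6, 250 bases before to 50 after each start) were held for 5 of the 8 genes. Those of Tnc and Thbs2 are shown because these genes varied most alike between libraries, and that of Postn because it differed between the sets. Capitals mark matches to TATAAA or to TGGGAA, the core bound by RBPJ, the DNA-binding factor of Notch signalling. The Tnc window is chr4:64046966-64047265 on the minus strand, the Thbs2 window chr17:14694213-14694512 on the minus strand, and the Postn window chr3:54360857-54361156 on the plus strand.
Tnc: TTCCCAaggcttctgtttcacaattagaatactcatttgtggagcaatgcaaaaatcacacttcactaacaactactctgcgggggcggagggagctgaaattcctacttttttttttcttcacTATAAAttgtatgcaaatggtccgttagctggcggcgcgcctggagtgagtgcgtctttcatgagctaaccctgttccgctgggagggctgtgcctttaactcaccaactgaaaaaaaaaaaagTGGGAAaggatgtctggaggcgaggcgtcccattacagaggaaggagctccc
Thbs2: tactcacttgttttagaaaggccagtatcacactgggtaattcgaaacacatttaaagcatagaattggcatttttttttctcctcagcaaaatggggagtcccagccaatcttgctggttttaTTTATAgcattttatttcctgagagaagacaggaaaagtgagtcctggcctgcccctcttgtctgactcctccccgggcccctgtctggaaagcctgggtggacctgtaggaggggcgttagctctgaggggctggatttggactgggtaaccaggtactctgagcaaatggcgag
Postn: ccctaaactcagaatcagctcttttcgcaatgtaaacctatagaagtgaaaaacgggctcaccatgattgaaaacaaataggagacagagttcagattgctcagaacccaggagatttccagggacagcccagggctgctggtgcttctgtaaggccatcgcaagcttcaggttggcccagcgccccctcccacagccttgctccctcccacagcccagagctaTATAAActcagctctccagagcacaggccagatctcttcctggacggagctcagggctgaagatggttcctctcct
With position 0 as the start of the entry, the printed Tnc window held TGGGAA at -2 to 3 and, on the reverse strand, at -250 to -245, and TATAAA at -126 to -121. The Thbs2 window held TATAAA on the reverse strand at -126 to -121, and the printed Postn window held it at -26 to -21. Tnc and Postn each had another entry with a different start, not printed here. In the other Tnc entry TGGGAA lay at -81 to -76 and TATAAA at -205 to -200, and the other Postn entry held neither. No TGGGAA lay in the printed Thbs2 and Postn windows. Both strands were searched, and the matches shown do not overlap each other. Of all 32851 promoter windows, 25.6% held TGGGAA and 13.6% held TATAAA. The other motifs searched, TGANTCA (AP-1, 7.81% of windows), CATTCC (MCAT, 14.7%) and the CArG box (1.63%), were not in these windows.

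Mgp and Sparc were the most abundant of the 8 genes. In set 076 Mgp had a mean level of 6674 ± 2340 (SD, n = 4) and ranked 3 to 11 among protein-coding genes. Sparc followed at 1070 ± 205, with no overlap between them. Sparcl1 at 288 ± 32.7, Postn at 275 ± 38.5 and Thbs1 at 254 ± 175 came next and overlapped one another, Thbs1 also reaching down among the lowest 3. Tnxb at 87.8 ± 33.4, Tnc at 77.1 ± 47.2 and Thbs2 at 61.7 ± 22.3 were lowest and also overlapped. In set 045 the order began with Sparc at 873 ± 223 and Mgp at 564 ± 258, whose values overlapped. Thbs1 at 321 ± 128 and Sparcl1 at 226 ± 95.9 followed, then Tnxb at 101 ± 35.7, Postn at 77.8 ± 18.9 and Tnc at 67.8 ± 44.2, and last Thbs2 at 31.2 ± 19.4. Each neighbouring pair in this order overlapped. The 8 genes had 19 to 1884 reads per library in set 045 and 636 to 25900 in set 076, so counting error was larger in set 045.

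**Figure D1:**
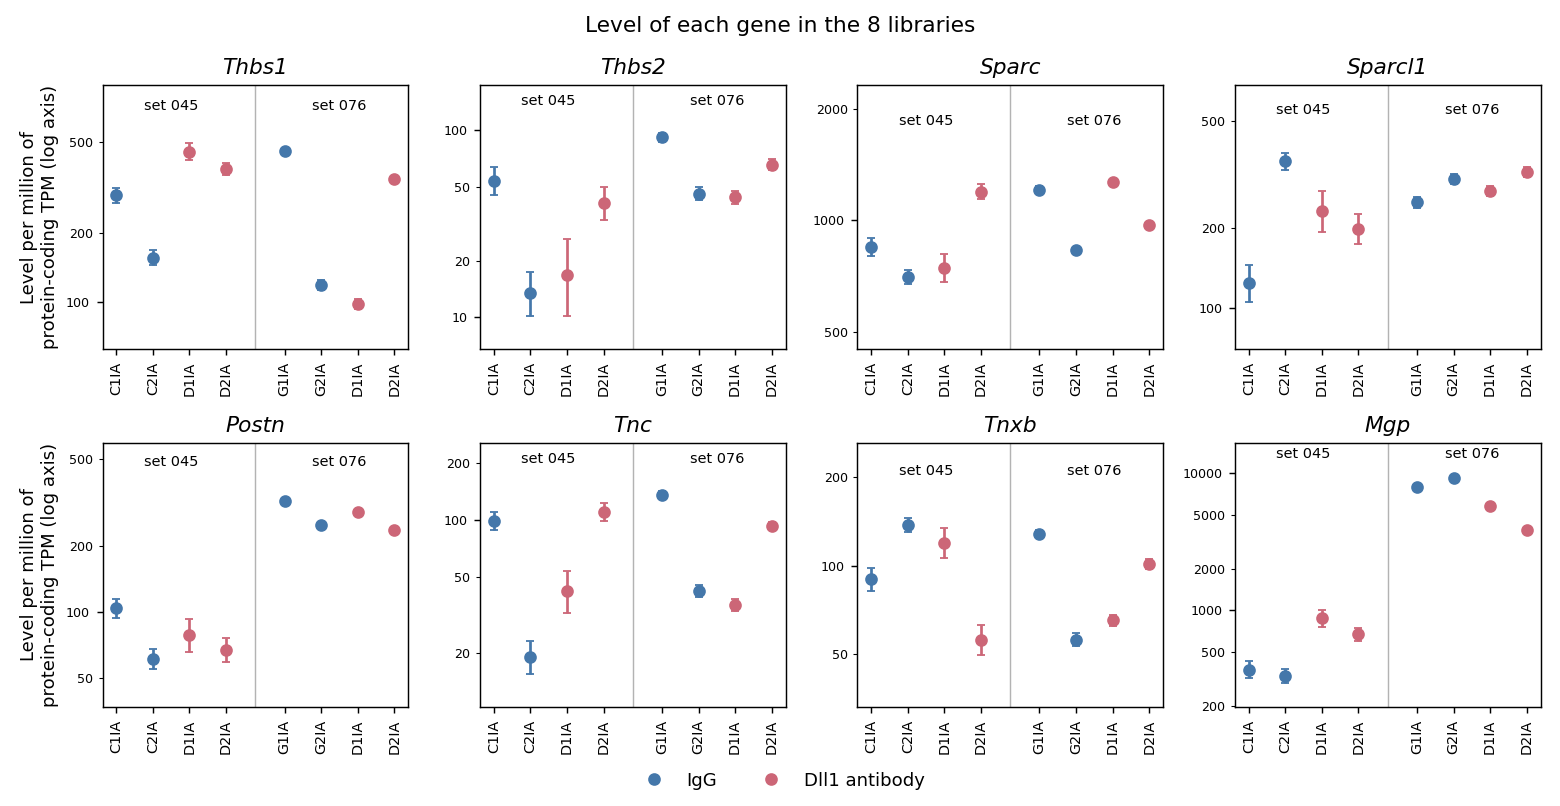
Level of each gene on the protein-coding scale (log axis) in the 8 libraries, by set and treatment; bars are 95% counting intervals of the reads. Mgp and Postn lie higher in every library of set 076 than in any of set 045, and IgG and antibody libraries overlap for most genes.

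Thbs1 lies at chr2:118111876-118127133 (plus strand, GRCm38, GENCODE M21). In set 045 IgG libraries had levels of 293 and 156, and antibody libraries 454 and 381. In set 076 IgG libraries had 457 and 119, and antibody libraries 97.8 and 344. The antibody libraries of set 045 both lay above the IgG pair, whereas in set 076 each treatment had 1 high and 1 low library. Thbs2, which like Thbs1 inhibits vessel growth, lies at chr17:14665500-14694235 (minus strand). Its levels were 53.7, 13.4, 16.7 and 40.9 in set 045 and 91.8, 45.9, 43.7 and 65.4 in set 076. The treatments overlapped in both sets, and the lowest read number, 19 in D1IA of set 045, has an exact 95% Poisson interval of 11.4 to 29.7.

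Tnc encodes tenascin C, a large glycoprotein induced at sites of injury and inflammation, and lies at chr4:63959785-64047015 (minus strand). Its levels were 99.2, 19.1, 42.3 and 111 in set 045 and 137, 42.6, 35.9 and 93.5 in set 076. It varied most within a set of the 8 genes in set 045, 5.79-fold from lowest to highest, with high and low libraries in both treatments. Tnxb encodes tenascin X, which is tied to collagen fibrils and elasticity of connective tissue, and lies at chr17:34670535-34719815 (plus strand). Its levels were 90.0, 138, 120 and 56.1 in set 045 and 128, 56.1, 65.3 and 101 in set 076. In both sets the treatments overlapped.

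Postn encodes periostin, a fibroblast and smooth muscle product that promotes collagen cross-linking, and lies at chr3:54361109-54391037 (plus strand). Its levels were 104, 61.3, 78.5 and 67.2 in set 045 and 324, 251, 287 and 238 in set 076. The treatments overlapped within each set, and the sets did not overlap each other.

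Sparc, a collagen-binding glycoprotein also called osteonectin, lies at chr11:55394500-55423183 (minus strand). Its levels were 848, 704, 745 and 1195 in set 045 and 1211, 830, 1267 and 970 in set 076. It was among the steadier genes, differing 1.70-fold and 1.53-fold from lowest to highest within the sets. Sparcl1, a relative of Sparc, lies at chr5:104079111-104113733 (minus strand). Its levels were 124, 354, 231 and 197 in set 045 and 249, 305, 275 and 322 in set 076. The treatments overlapped for both genes in both sets.

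Mgp lies at chr6:136872435-136875823 (minus strand). In set 045 its levels were 371 and 335 in IgG libraries against 878 and 672 in antibody libraries, from 183, 281, 200 and 326 reads. In set 076 they were 7878 and 9173 against 5792 and 3854, from 20099, 25900, 16896 and 10057 reads. The antibody libraries thus lay above the IgG libraries in set 045 and below them in set 076.

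Antibody and IgG were compared over all 8 libraries with the set as a term, by limma on log2(level + 1). None of the 8 genes passed an adjusted p of 0.05, and 0.00% of the 18170 genes tested passed it. Without adjustment, 278 genes (1.53%) had a p under 0.05, and none of them was among the 8. The log2 fold change was 0.31 (SE 0.56) for Thbs1, -0.16 (SE 0.47) for Thbs2, 0.12 (SE 0.65) for Tnc and -0.25 (SE 0.35) for Tnxb. It was -0.13 (SE 0.22) for Postn, 0.22 (SE 0.26) for Sparc, 0.07 (SE 0.32) for Sparcl1 and 0.14 (SE 0.41) for Mgp. Every adjusted p was 1.00. The 95% interval was narrowest for Postn, from -0.64 to 0.37, and widest for Tnc, from -1.36 to 1.60, which leaves changes of over 2-fold in either direction within it. The median of the 8 genes was 0.09 and that of all genes -0.07. The test of limma-voom on recovered reads called 0 of 14405 genes, with 213 at an unadjusted p under 0.05.

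**Figure D2:**
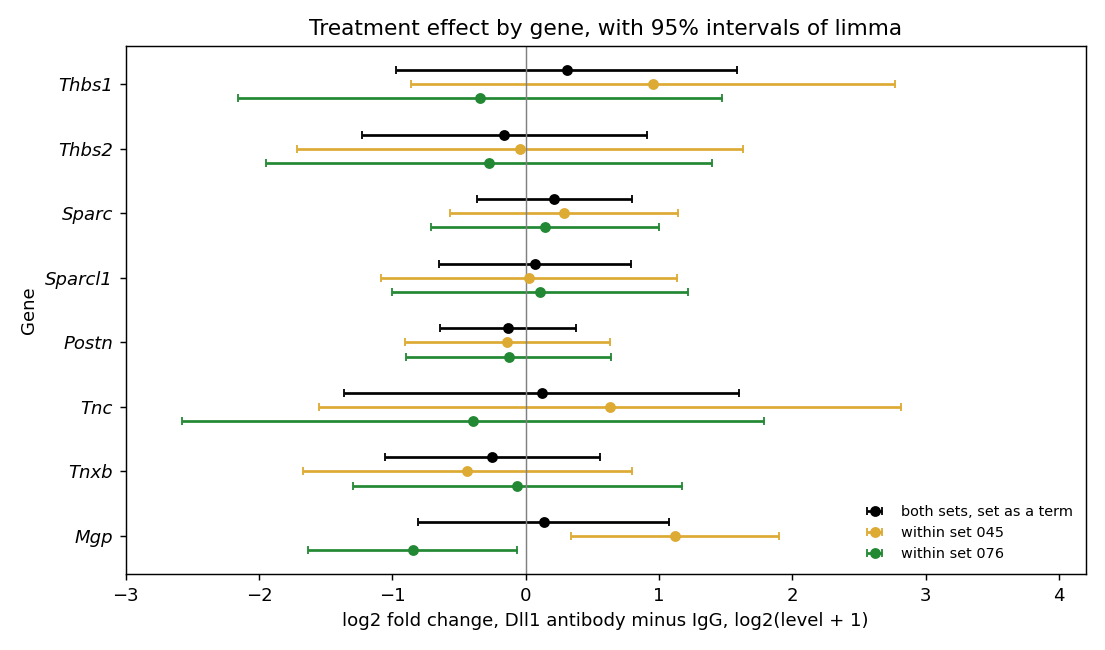
Log2 fold change of each gene, antibody minus IgG, over all libraries with the set as a term and within each set; bars are 95% intervals of limma. Only the Mgp intervals within the sets exclude 0, above it in set 045 and below it in set 076.

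Within set 045 the log2 fold change of Mgp was 1.12 (SE 0.33, 95% interval 0.34 to 1.90), a 2.17-fold ratio. Its p in limma was 0.0114 and its adjusted p 0.564. Within set 076 it was -0.85 (SE 0.33, 95% interval -1.63 to -0.06), with p 0.0375 and adjusted p 1.00. None of the 8 genes was called within either set, where 0.00% and 0.0110% of all genes were called. Mgp was the 1 gene of the 8 at an unadjusted p under 0.05, as were 7.99% and 0.897% of all genes. The difference between the within-set changes was -1.97 (SE 0.47, 95% interval -3.08 to -0.86) for Mgp, with p 0.00385 and adjusted p 0.798 in limma. No gene of the 8 was called for that difference, against 0.00% of all genes (5.09% at an unadjusted p under 0.05). Libraries of opposite order without overlap in both sets were found for 4.49% of genes (2.25% in the order of Mgp), and of the same order in both sets for 2.11%, none of them among the 8.

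The size of the Mgp contrast in set 045 depended on the scale. In deposited TPM its levels there were 6.33 and 10.4 in IgG libraries against 7.45 and 11.8 in antibody libraries, which overlap, and the log2 fold change was 0.19 (SE 0.75). The difference between the sets was then -0.97 (SE 1.07), against -1.97 on the protein-coding scale. Protein-coding genes held 1.70% and 3.10% of TPM in those IgG libraries and 0.848% and 1.76% in the antibody libraries. The summed level of the 6 endothelial markers had the same order as Mgp in both sets: it was 426 and 593 in the IgG libraries against 925 and 653 in set 045, and 714 and 664 against 444 and 618 in set 076. Of its genes only Pecam1 had that order without overlap in both sets, at 148 and 144 against 312 and 219 and at 356 and 382 against 244 and 295; the other 5, Cdh5, Vwf, Kdr, Tie1 and Emcn, overlapped in 1 set or both. The 6 smooth muscle markers summed to 651 and 548 against 935 and 950 in set 045, and to 4558 and 3950 against 4116 and 3543 in set 076. The 6 fibroblast markers summed to 1373 and 1966 against 1591 and 2080, and to 9414 and 11636 against 10694 and 5062. All of these markers were above 0 in every library. The antibody libraries of set 076 also had higher sums of skeletal muscle and platelet markers. The 8 skeletal muscle markers summed to 4921 in D1IA and 387 in D2IA against 112 and 11.2. The 6 platelet markers summed to 205 and 166 against 101 and 116, though Pf4 among them overlapped. Sums of heart muscle, cartilage, fat, tendon and Schwann cell markers overlapped between the treatments in that set. In set 045 skeletal muscle markers summed to 101 and 9.80 against 64.4 and 4.97, with 1 of the 8 above 0 in all libraries, and platelet markers to 341 and 458 against 473 and 129. The Mgp log2 fold change within set 076 was -1.14 (SE 0.40) when its D1IA was left out and -0.55 (SE 0.40) when its D2IA was. The part of these cells in the Mgp values was not tested, and in whole tissue fewer cells of a type and less RNA per cell cannot be told apart.

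Thbs1 was the other gene whose antibody libraries both lay above the IgG libraries in set 045, with a log2 fold change of 0.96 (SE 0.77) there and -0.34 (SE 0.77) in set 076. In set 045, 14.2% of all genes were higher without overlap, 20.8% lower and 35.0% either; in set 076, 7.99% were higher, 11.0% lower and 19.0% either. The within-set changes were 0.63 and -0.39 for Tnc, -0.04 and -0.28 for Thbs2, -0.44 and -0.06 for Tnxb, -0.14 and -0.13 for Postn, 0.29 and 0.14 for Sparc and 0.03 and 0.11 for Sparcl1.

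Set 076 exceeded set 045 in Mgp by 3.60 on the log2 scale (SE 0.41, adjusted p 0.00577) and in Postn by 1.83 (SE 0.22, adjusted p 0.00656) in limma with treatment as a term. On the linear scale the set means differed 11.8-fold and 3.53-fold. These 2 of the 8 genes were called, both higher; 2.67% of all genes were called higher, 6.84% lower and 9.52% in either direction. These are 486 and 1243 genes; with median-ratio scaling they were 886 and 626, so the balance of the directions depends on the scaling. Mgp and Postn were called whichever library was left out, while the number of genes called fell to 145 without D1IA and 163 without G2IA of set 076, and reached 3008 without D1IA of set 045. Thbs2 had a difference of 1.12 (SE 0.47, p 0.0429, adjusted p 0.156 in limma) and was not called. It passed when the 2 libraries with Xist reads had a term of their own (1.91, SE 0.34, adjusted p 0.0322 in limma). With that term, 198 of 18170 genes were called higher and 420 lower. In the fit without that term, 3 of the 8 genes and 29.4% of all genes had an unadjusted p under 0.05. The difference was 0.44 for Sparcl1, 0.30 for Sparc, 0.28 for Tnc, -0.20 for Tnxb and -0.53 for Thbs1, none of them called. The median difference over all genes was -0.27. Mgp and Postn were also the 2 of the 8 genes whose sets did not overlap, both higher in set 076, beside 6.41% of all genes higher and 14.6% lower. Smooth muscle and fibroblast marker sums were also higher in set 076 without overlap, as was that of 6 fat markers, at 734 to 4756 in set 045 and 5860 to 14915 in set 076 with Lep at 0 in 1 library. Not every gene followed its sum. Smtn and Des of smooth muscle overlapped between the sets, as did Dpt, Pi16 and Scara5 of fibroblasts and Plin1, Ucp1 and Lep of fat. The log2 difference was 0.01 for Smtn and 0.04 for Pi16, and Lep was lower in set 076 (-2.15, SE 1.12). Cartilage markers overlapped and summed to 18.2 to 54.9 in set 045 and 46.3 to 499 in set 076, and 3 of these 8 genes were above 0 in all libraries, with Matn1 at 0 in 7. Their part in the difference was not tested, and the set cannot be told apart from whatever else differed between the column sets.

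**Figure D3:**
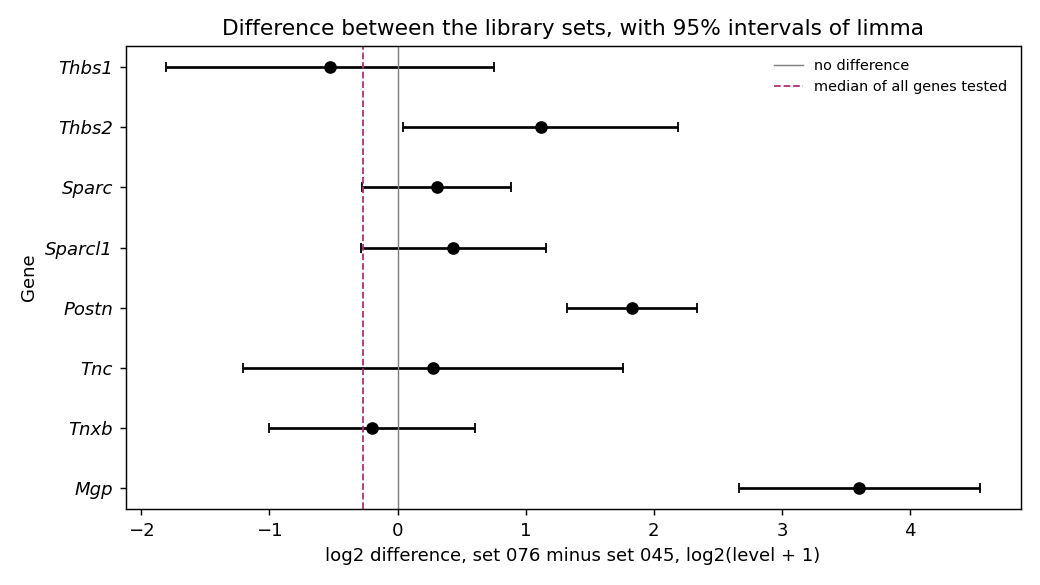
Log2 difference between the sets for each gene, set 076 minus set 045, with treatment as a term; bars are 95% intervals of limma. Mgp at 3.60 and Postn at 1.83 stand above the other 6 genes.

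Within the sets, Thbs2 and Tnc were high and low in the same libraries. Deviations from the set means of log2(level + 1) had a Pearson r of 0.94 between them over 8 libraries, and Thbs1 and Tnc one of 0.78. Sparcl1 ran the other way, with r -0.87 to Postn, -0.83 to Thbs2 and -0.71 to Tnc. These are descriptions over libraries that share their set. Depth was not shared in set 045, where reads on protein-coding genes ran from 663099 in D1IA to 2729071 in C2IA. In set 076 Thbs1, Thbs2, Tnc and Tnxb were all higher in G1IA, an IgG library, and D2IA, an antibody library, than in the other 2. In set 045 Thbs2, Tnc and Sparc were highest in C1IA and D2IA, the 2 libraries with Xist reads, while Sparcl1 and Tnxb were lowest there. Macrophage marker sums were also higher in G1IA and D2IA of set 076, at 11430 and 7704 against 5234 and 5743, and higher in C1IA and D2IA of set 045 than in C2IA, at 8175 and 11335 against 4436, with 7719 in D1IA. Tendon markers summed to 252 and 223 in G1IA and D2IA of set 076 against 103 and 108, mostly through Comp, while Fmod and Tnmd were highest in D1IA. In set 045 their sums were 179 and 111 in the IgG libraries and 60.3 and 102 in the antibody libraries, which is not the order of Tnc. Of those 6 genes 4 were above 0 in all libraries, and Tnmd was at 0 in 4. The part of these cells was not tested.

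**Figure D4:**
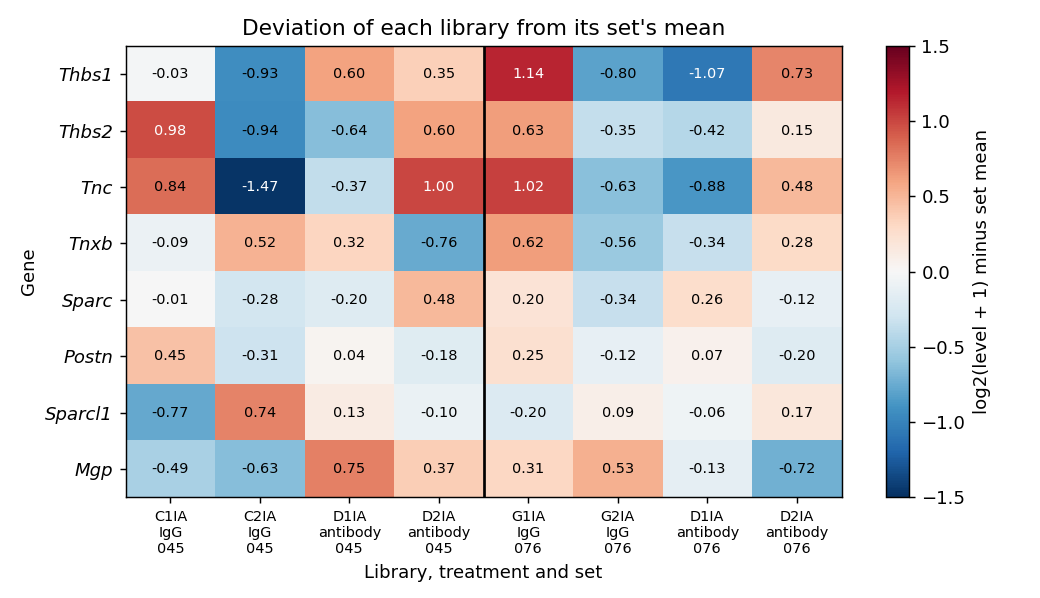
Deviation of each gene from its set mean on the log2(level + 1) scale in the 8 libraries. Thbs2 and Tnc share their sign pattern, and Sparcl1 is mostly opposite to them.

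Among 10903 genes with a mean level of at least 10, the genes whose deviations were most like each gene's were named by r over the 8 libraries. For Tnc they were Peli1 (1.00), Snx20 (0.99) and Col3a1 (0.98), the last a fibrillar collagen with levels of 1488, 427, 970 and 2132 in set 045 and 1241, 440, 444 and 866 in set 076. For Thbs2 they were Loxl2, a collagen cross-linking enzyme, Mmp23 and Qsox1, each at 0.97. For Thbs1 they included Myh9 (0.99), the heavy chain of non-muscle myosin, and Fbln2 (0.98), a matrix fibulin. For Mgp they were Cenpb (0.99), Rpsa (0.97) and Sh3bgrl (0.96). For Sparc they were Dntt (0.96), Hist1h2bl (0.94) and Acan (0.94), and for Sparcl1 Tada2b (0.99), Tmbim6 (0.99) and Acad10 (0.98). For Postn they were Snord13 (0.97), Stard10 (0.94) and Tnnt2 (0.91), and for Tnxb Tbc1d17 (0.97), Mmp11 (0.96) and Parp10 (0.96). All of these r values are the highest of 10903 for their gene, over only 8 libraries centred on their set means. A search this wide also finds high r values between unrelated genes. The names are therefore descriptions, and shared control of these genes was not tested.

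Genes that work with these proteins were compared in the same fits. Of 22 tested matricellular relatives, of 20 receptors, of 18 genes of vitamin K use and calcification, of 17 genes of the TGF-beta axis and of 14 collagens and their partners, none was called for the antibody. Their median log2 fold changes were -0.17, -0.13, 0.09, 0.10 and 0.28, beside -0.07 over all genes. Among the relatives, the smallest p-values were those of Tnn, a tenascin, at 0.92 (SE 0.53) and Efemp1, a fibulin, at -0.31 (SE 0.19), each with an adjusted p of 1.00 in limma.

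Between the sets, 4 of the 22 relatives were higher in set 076 and none lower, beside 2.67% higher and 6.84% lower of all genes, the shares against which the counts below are read. Nov, a CCN family protein, was at 30.9 to 37.5 in set 045 and 229 to 235 in set 076, a difference of 2.71 on the log2 scale (SE 0.16, adjusted p 5.97e-04 in limma). Ctgf, another CCN protein, was at 129 to 317 and 792 to 1460, a difference of 2.36 (SE 0.33, adjusted p 0.00968 in limma). Fbln5 and Smoc1 differed by 1.07 and 1.63. Of the 20 receptors, 4 were higher: Itga8, a smooth muscle integrin chain that pairs with Itgb1 and binds tenascin C, by 4.71, Cd36 by 2.27, Egfr by 1.23 and Itgb1 by 1.03. Of the 18 vitamin K and calcification genes, Tnfrsf11b (osteoprotegerin) was higher by 3.19 and Ibsp (bone sialoprotein) by 5.53, and Bmp6 was lower (-1.58). Ibsp was low and uneven in set 045, from 0 in D1IA to 39.0 in D2IA, and at 157 to 620 in set 076. Its difference had an SE of 1.11 and an adjusted p of 0.0284 in limma. Of the genes called in the TGF-beta axis, Ltbp1, which stores latent TGF-beta in the matrix, was higher by 1.82, and of the 14 collagens and partners Col5a3 was lower (-2.80).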

How the data were processed

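The authors deposited TPM (a share of transcripts, adjusted for length) for 49585 genes in 8 columns that each sum to 1000000, per the file headers and the values. Per the labels, RNA was extracted with TRIZOL, depleted of ribosomal RNA and made into strand-keeping libraries. The submitters' processing notes name the build hg19, although the identifiers are mouse; the aligner, the counter and the annotation: not given in the sources used here. Gene positions and exon lengths come from GENCODE M21 (GRCm38), matched by identifier. Whether counting used strand is not stated: opposite-strand genes share 3.43% of the exon bases of Thbs1, 2.27% of Tnc and 0.025% of Tnxb, and no other gene's exons share bases with the other 5.

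Column names give the treatment and set but not the sample number, so a column is a replicate of its group. Tests used limma (version 3.58.1, under R 4.3.3) with trended and robust empirical Bayes on log2(level + 1), two-sided, over the 18170 genes whose mean reached 1 on the protein-coding scale, adjusted by Benjamini-Hochberg over all of them with a threshold of 0.05. Fold changes on this scale understate changes of low genes. Residual degrees of freedom were 5 with the set as a term and 4 for the within-set contrasts and their difference, which used all 8 libraries. Whole reads were recovered from TPM and exon length for 100% of 25386 genes above 0 (relative tolerance 1e-05; 5681 with a length derived from the values, which included Thbs2) and served for depth, counting intervals and 1 alternative test; intervals cover counting error only. The fit was tested on simulated data. The genes and lists were chosen with earlier results of these data known. The genes named beyond the 8 are those of smallest p in each list, the 3 most alike by r for each of the 8, and those called between the sets, the last chosen after their values were seen; a few genes that these rules name are not reported here. Alternatives were other scales, a pseudocount of 0.1, no filter, other variance models, array weights, limma-voom, a term for Xist reads, and fits without libraries. Figures were drawn with matplotlib 3.10.9.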

Additional observations from a re-analysis of the deposited data

Results flagged for a closer look

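On the protein-coding scale both antibody libraries had Mgp levels above both IgG libraries in set 045 and below both in set 076, and neither contrast passed the threshold. The log2 fold change in set 076 minus that in set 045 was -1.97 (SE 0.47), with p 0.00385 and adjusted p 0.798 in limma, so the difference did not pass the threshold over all genes. On deposited TPM, where the treatments overlap in set 045, the difference was -0.97 (SE 1.07, adjusted p 0.885 in limma). The same order, higher in set 045 and lower in set 076 without overlap, was found for 2.25% of all genes tested.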

How the results depend on the processing

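None of the 8 genes was called for the antibody, within a set or for the difference between sets in any alternative run, and Mgp and Postn were called between the sets in every alternative that gave that comparison. No paired analysis was possible because the columns do not say which numbered sample each holds. Counts over all genes moved more: within set 045, 65 genes were called without D2IA (8 higher, 57 lower), and on deposited TPM 78 were called within set 076 and 134 for the difference between the sets' changes. Array weights gave 6040 calls between the sets against 1729. A term for the 2 libraries with Xist reads, chosen after seeing the data, reversed no sign and called none of the 8 genes for the antibody. Of all 18170 genes, 0 were called with it over both sets, 0 within set 045 and 3 within set 076. On deposited TPM with the set as a term, 1 gene of all tested was called for the antibody (adjusted p 0.0444 in limma). All 8 genes were called higher in set 076 on that scale, as were 10888 of the 11468 genes tested. The median of all genes between the sets moved from -0.27 to 2.17. The sign of a log2 fold change reversed as follows, and the cause was not tested. For antibody against IgG on deposited TPM, with or without the set term, values were -0.11 for Thbs1, -0.18 for Sparc, -0.28 for Sparcl1, -0.18 for Tnc and -0.29 for Mgp. On that scale they were -0.56 for Sparc, -0.74 for Sparcl1 and -0.047 for Tnc within set 045, 0.0018 for Tnxb within set 076, and 2.97 for Thbs1 and 2.86 for Tnxb between the sets. With array weights they were -0.076 for Thbs1, -0.095 for Sparcl1, 0.065 for Postn, -0.041 for Tnc and -0.38 for Mgp, and -0.14 for Tnc between the sets. With limma-voom they were 0.42 for Thbs2 within set 045 and 0.0012 for Tnxb between the sets, and with median-ratio scaling 0.026 and 0.13. Without the 2 libraries with Xist reads they were -0.13 for Sparcl1, 0.032 for Postn and -0.10 for Mgp over both sets, and 0.30 for Thbs2, -0.61 for Sparcl1 and 0.35 for Postn within set 045, where 1 library per treatment was left and was assumed to vary like the others.

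Leaving out 1 library at a time, the antibody change ranged from -0.14 to 0.45 for Mgp, -0.28 to 0.020 for Postn, -0.22 to 0.38 for Sparcl1, -0.0024 to 0.83 for Thbs1, -0.57 to 0.20 for Thbs2, -0.45 to 0.55 for Tnc and -0.52 to 0.0034 for Tnxb. Within set 045 it ranged from -0.51 to 0.24 for Postn, -0.053 to 0.63 for Sparc, -0.73 to 0.78 for Sparcl1, -1.01 to 0.92 for Thbs2, -0.53 to 1.79 for Tnc and -0.98 to 0.10 for Tnxb. Within set 076 it ranged from -0.31 to 0.054 for Postn, -0.13 to 0.42 for Sparc, -0.036 to 0.26 for Sparcl1, -1.31 to 0.63 for Thbs1, -0.77 to 0.22 for Thbs2, -1.22 to 0.44 for Tnc and -0.65 to 0.53 for Tnxb. Between the sets it ranged from -0.29 to 0.65 for Tnc and -0.45 to 0.075 for Tnxb. Fitting each set alone, chosen after seeing the data, called none of the 8 genes. Of all genes tested, these fits called 0 of 18211 in set 045 and 9 of 17300 in set 076. The 8 genes had 19 to 1884 reads per library in set 045, and the intervals there span changes in both directions for all of them but Mgp.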
